A study of Homo sapiens with 12 samples.

Results

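In the androgen-dependent prostate cancer line LNCaP, 2110 of 26076 tested genes met a rule for opposite responses to raised and lowered USP22. USP22 encodes a deubiquitinase. A gene was counted when the mean of the change on overexpression and the sign-reversed change on depletion, here called the dose contrast, passed an adjusted p of 0.05, and when the signs of the 2 changes were opposite. Changes are log2 fold changes of overexpression over the vector control and of depletion over the shRNA control. The dose contrast passed for 2840 genes (10.9% of those tested), and the opposite signs held for 2110 of them (8.09%), while the other 730 had the same sign in both. Of the members, 843 were higher with more USP22 (3.23% of tested genes) and 1267 were lower with more USP22 (4.86%). Only 123 members passed in both comparisons taken singly, 1515 on depletion alone, 153 on overexpression alone and 319 in neither. Most members thus had no detected change on overexpression and were counted by its sign. The dose contrast chose the members, so its values describe them. At the edge of the threshold stood DRAP1, just inside with an adjusted p of 0.04999 and a dose contrast of -0.21, and RAB33B, just outside with 0.05003 and 0.24.

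The groups of 3 libraries each were cells overexpressing USP22, their vector control (pLPLUC), cells with an shRNA against USP22 and cells with a control shRNA. All derived from LNCaP and grew in hormone-proficient medium. Cells of both shRNA groups had been given doxycycline for 5 days (1 ug/mL, renewed each 48 hours), and the labels name none for the other 2 groups. A single shRNA was used, and the labels say neither whether the lines were clones nor whether replicates came from separate cultures, and the spread behind the p-values may thus be technical. Totals ran from 77607469 to 103690001 counted reads. Vector control replicate 3 stood apart (SD of log2 values around its group mates 0.59, against 0.46 for the other 2). All 11 markers of LNCaP cells were present, at a summed 5640 to 5750 CPM (counts normalised to library size) after overexpression, 5710 to 6090 in the vector control, 6320 to 6640 after depletion and 8040 to 8700 in the shRNA control. Leukocyte markers summed to at most 0.54 CPM in any library, and PECAM1 of endothelium was at 0. The summed basal epithelium markers were at 0.606 to 0.802 CPM after overexpression, 0.835 to 0.942 in the vector control, 2.87 to 3.75 after depletion and 3.84 to 4.33 in the shRNA control. The 4 endothelium markers, mostly VWF, a clotting factor gene and itself a member, summed to 9.23 to 10.6 CPM after overexpression, 8.98 to 12.1 in the vector control, 12.8 to 15.3 after depletion and 6.77 to 8.18 in the shRNA control. The 6 fibroblast and stroma markers summed to 10.7 to 12.1 CPM after overexpression, 9.86 to 12.5 in the vector control, 14.6 to 19.4 after depletion and 17.5 to 19.3 in the shRNA control, and of the 4 tested COL3A1, a collagen gene, was a member. Of the 11 LNCaP markers 3 were members, all higher with USP22. What part these levels have in the results was not tested.

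USP22 is the ubiquitin protease of the SAGA complex, a coactivator that acetylates histones at promoters and removes ubiquitin from histones H2A and H2B. Within SAGA it works in a module with ATXN7, ATXN7L3 and ENY2, and it also removes ubiquitin from proteins other than histones. In prostate cancer cells it has been tied to MYC and to progress through the cell cycle.

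USP22 itself (ENSG00000124422) had 1498, 1406 and 1495 CPM after overexpression, against 481.6, 490.6 and 565.2 CPM in the vector control. It had 256.9, 265.3 and 250.6 CPM after depletion, against 479.6, 473.4 and 479.7 CPM in the shRNA control. Neither pair of groups overlapped, and both controls stood at a like level, with a log2 difference of -0.10 (SE 0.06, edgeR adjusted p = 0.203). With 3 libraries against 3, the smallest p of an exact two-sided permutation test is 0.1. The log2 change of USP22 was 1.52 on overexpression and -0.89 on depletion (SE 0.06 each, edgeR adjusted p = 4.29e-10 and 5.41e-08), and its dose contrast was 1.20 (SE 0.04, edgeR adjusted p = 1.64e-10). The other 6 tested genes of the deubiquitinase module did not pass. Their dose contrasts ran from -0.08 for ENY2, the module's small adaptor, to 0.08 for ATXN7L1, a paralog of the anchoring subunit ATXN7. Of 15 genes of the SAGA core and acetyltransferase, 0 passed by edgeR, DESeq2 or limma voom, and by edgeR 2 had an unadjusted p under 0.05.

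The members rested mostly on the depletion. Taken singly, the depletion comparison passed for 5172 genes (19.8%), higher for 9.4% and lower for 10.4%. The overexpression comparison passed for 1072 (4.11%), higher for 1.51% and lower for 2.6%. Of the 2110 members, 1515 (71.8%) passed in the depletion comparison alone, 153 in the overexpression comparison alone, 123 in both and 319 in neither. The change on depletion was the larger in size for 78.5% of members. A test of the difference in size passed for 572 members (27.1%), and the depletion was the larger in 528 of these. Shares over all tested genes are not given for these 2 measures, so they describe the members and are not shown to be particular to them. Members lower with USP22 had a median log2 change of -0.15 on overexpression and 0.35 on depletion, and those higher with USP22 had 0.20 and -0.41, where the medians of all tested genes were -0.01 on overexpression and 0 on depletion.

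Opposite changes that each passed alone were fewer than parallel ones. The 2 comparisons share no library. Genes passing in both with opposite signs numbered 123 (0.472% of tested genes), 52 of them higher and 71 lower with USP22. They made up 11.5% of the genes passing on overexpression and 2.38% of those passing on depletion. Genes passing in both with the same sign numbered 470 (1.8%), which is 43.8% and 9.09% of the same lists. Libraries of both pairs did not overlap, with opposite signs, in 918 members (43.5%). The rule used the same libraries and asked for opposite signs, so this share describes the members and is no separate evidence for them. Over all tested genes, 4.52% were apart in both pairs with opposite signs and 7.42% with the same sign. Without any test, 47.1% of all tested genes had opposite signs.

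**Figure D1:**
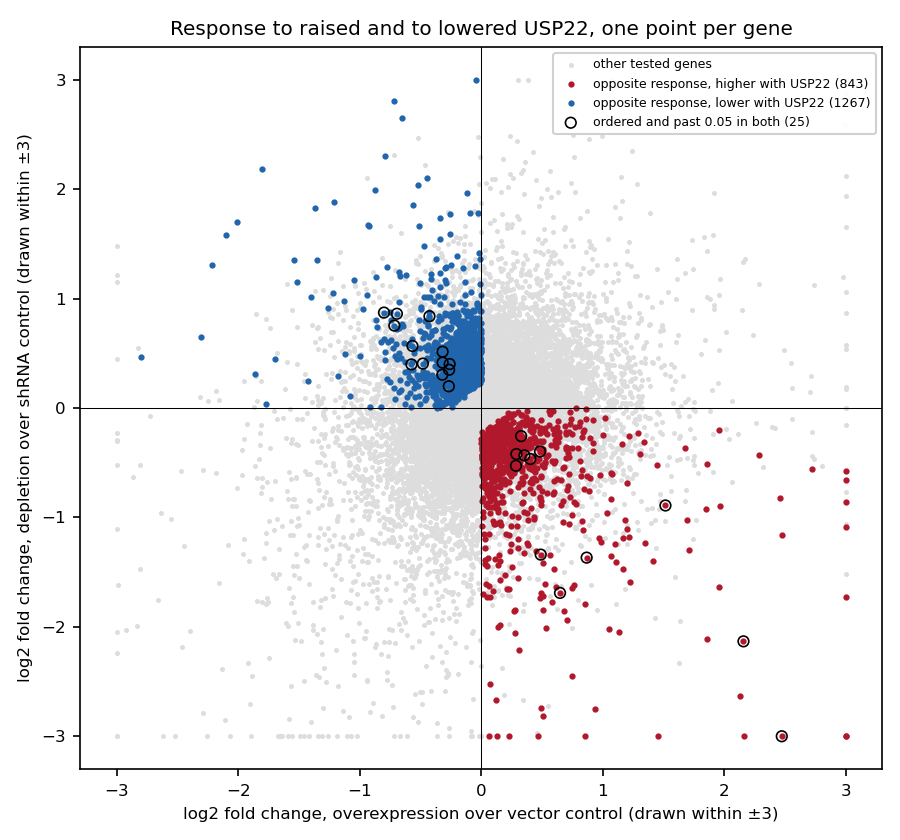
Log2 fold change on overexpression over the vector control (horizontal) and on depletion over the shRNA control (vertical), one point per tested gene, with values beyond ±3 drawn at ±3. Red points are the 843 members higher with USP22, blue points the 1267 lower with USP22, grey points all other genes, and circles the 25 members that passed in both comparisons and whose group means lie in the order of USP22. Most members lie nearer the vertical axis than the horizontal one.

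The 2 controls differed from each other in many of these genes. Between shRNA control and vector control 11211 genes passed (43%), although USP22 did not. The median log2 difference of shRNA control minus vector control was 0.68 for members higher with USP22 and -0.70 for members lower with USP22, against 0.02 for all tested genes. Of the 1267 lower members, 1146 were lower in the shRNA control than in the vector control by the test, and of the 843 higher members 676 were higher. The dose contrast and the control difference use the same control libraries, so these values are given side by side and are no separate evidence. Vector, control shRNA and doxycycline differ together between the 2 controls and cannot be told apart.

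A stricter order was asked of the group means: depletion beyond both controls on one side and overexpression beyond both controls on the other. It held for 224 members (10.6%), 130 higher and 94 lower with USP22, and for 2880 of 26076 tested genes (11%). These shares have unlike bases, because the order requires opposite changes, which all members had but only 12284 of the tested genes (47.1%). Among all tested genes with opposite signs the share was thus higher than among members. Of the 224 members, 25 also passed in both comparisons, 12 higher with USP22 and 13 lower. The examples that follow are mostly from these 25. Most were named by a rule that asked for no overlap of libraries within either comparison, so such gaps are no separate evidence.

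Among those that were higher with USP22, DTNA, which encodes dystrobrevin of the dystrophin complex, had 8.564, 9.393 and 9.697 CPM after overexpression, against 6.541, 6.91 and 6.23 CPM in the vector control. After depletion it had 3.411, 2.995 and 3.474 CPM, against 8.253, 8.313 and 8.425 CPM in the shRNA control. The 3 overexpressing libraries were above every other library and the 3 depleted libraries below every other one. The log2 changes were 0.49 on overexpression and -1.34 on depletion (edgeR adjusted p = 0.00322 and 3.12e-08), and their sizes differed (adjusted p = 0.00018).

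HFE, the hereditary haemochromatosis protein that regulates iron uptake, had 7.258, 6.57 and 6.285 CPM after overexpression, against 5.576, 4.948 and 5.201 CPM in the vector control. It had 4.095, 4.415 and 4.207 CPM after depletion, against 5.909, 5.724 and 5.525 CPM in the shRNA control. Here too the overexpressing libraries were above every other library and the depleted libraries below every other one. The controls overlapped and did not differ detectably (log2 difference 0.13, edgeR adjusted p = 0.281). POTEF, of the POTE ankyrin family, averaged 20.01 ± 0.932 CPM after overexpression and 14.3 ± 1.72 in the vector control, and 10.8 ± 0.0374 after depletion and 14.2 ± 1.33 in the shRNA control (SD, n = 3 each). POTE genes are near-identical copies, and FAR2P1 (dose contrast 0.43) is a pseudogene of FAR2, so reads of both may be split. BICRAL, a paralog of the BRD9-containing BAF complex subunit BICRA, had changes of 0.29 and -0.42, PALMD (palmdelphin) 0.29 and -0.53, and MMAA of the vitamin B12 pathway 0.33 and -0.26, all passing in both comparisons. KCNH8, a voltage-gated potassium channel, had 0.87 and -1.37, but lay at 0.1045 CPM after depletion and 0.2784 CPM in the shRNA control.

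**Figure D2:**
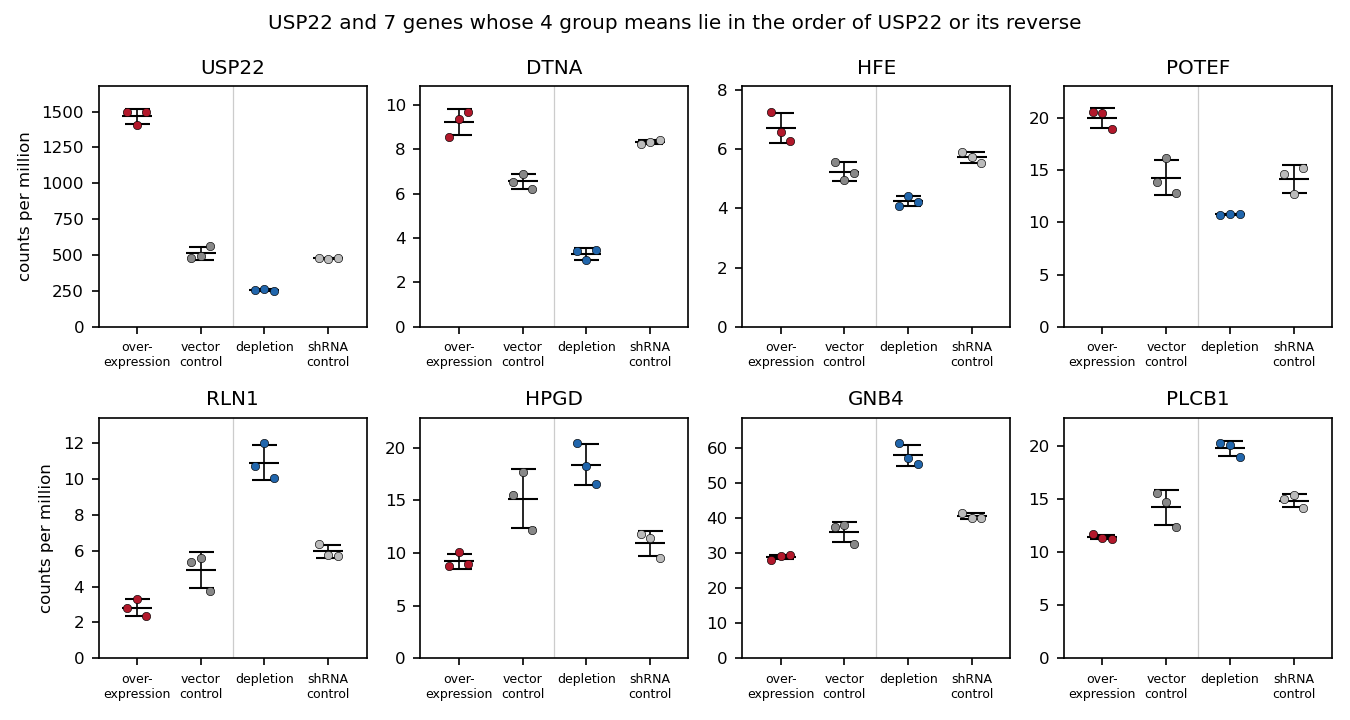
Level (CPM) of USP22 and 7 members in each of the 12 libraries, by group, with points for libraries and bars for mean ± SD. In the top row overexpression is highest and depletion lowest, and in the bottom row overexpression is lowest and depletion highest.

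Genes that were lower with USP22 in all 4 groups included RLN1, the hormone relaxin 1, with 2.791, 3.297 and 2.387 CPM after overexpression, against 5.36, 5.618 and 3.763 CPM in the vector control. After depletion it had 10.71, 11.99 and 10.04 CPM, against 6.376, 5.771 and 5.73 CPM in the shRNA control. Every depleted library was above, and every overexpressing library below, all libraries of both controls. The changes were -0.80 and 0.87, and the test of their difference in size did not pass (log2 sum 0.07, edgeR adjusted p = 0.862). RLN1 was chosen by the size of its smaller change, which favours changes of near equal size. RLN1 has a close paralog, RLN2, so its reads may be split.

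HPGD, which inactivates prostaglandins, had 8.719, 10.05 and 8.922 CPM after overexpression, against 15.53, 17.71 and 12.19 CPM in the vector control. After depletion it had 20.41, 18.25 and 16.53 CPM, against 11.77, 11.44 and 9.522 CPM in the shRNA control. The changes were -0.72 and 0.75 (edgeR adjusted p = 0.00322 and 0.000369), although overexpression overlapped the shRNA control and depletion the vector control. GNB4, a G protein beta subunit, averaged 28.9 ± 0.629 CPM after overexpression and 36.0 ± 2.9 in the vector control, and 58.0 ± 3.08 after depletion and 40.6 ± 0.881 in the shRNA control (SD, n = 3 each). PLCB1, a phospholipase C of the same signalling chain, had changes of -0.32 and 0.42. RAB39B, a small GTPase of vesicle traffic, had -0.43 and 0.84, JDP2, a repressor of AP-1, -0.48 and 0.41, MAOA, the monoamine oxidase, -0.32 and 0.31, and KCNK1, a two-pore-domain potassium channel, -0.26 and 0.40. BMX, a TEC family kinase, was ordered as well, with -0.33 on overexpression (edgeR adjusted p = 0.167) and 0.56 on depletion (0.00358). MMAA, KCNH8, MAOA and KCNK1 were chosen for mention after their values were seen.

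Other members changed strongly in both comparisons while the controls lay apart. LPAR3, a receptor for lysophosphatidic acid, had 38.43, 35.75 and 38.93 CPM after overexpression, against 27.22, 28.29 and 25.51 CPM in the vector control. After depletion it had 11.06, 12.59 and 10.46 CPM, against 39.3, 37.12 and 37.38 CPM in the shRNA control. Overexpression and the shRNA control overlapped, at a log2 control difference of 0.49. CAMK2D, a calcium-dependent kinase subunit, rose by 0.43 and fell by 1.01 on the log2 scale, and lay 1.35 higher in the shRNA control than in the vector control.

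The controls lay further apart in some members. NLGN2, a postsynaptic adhesion protein, had log2 changes of 0.51 on overexpression and -0.54 on depletion (edgeR adjusted p = 0.0266 and 0.00338), with a control difference of 1.35. RIMS4, of the presynaptic active zone, had 0.70 and -0.45, and DNAJC6, the uncoating factor auxilin, 0.52 and -0.51, with control differences of 1.99 and 2.32. In both genes depleted cells lay above the overexpressing cells: 9.55 against 5.33 CPM for RIMS4 and 9.95 against 4.08 CPM for DNAJC6. Of 25 tested genes of synaptic adhesion and vesicles, 3 were members (12%), all higher with USP22 (NLGN2, SYT7 and UNC13C), against 4.54% of genes with a mean of at least 5 CPM. RIMS4 and DNAJC6 are not in that list. Another 5 of its genes passed in both comparisons with the same sign, and its count of members was 5 without vector control replicate 3. STOX2, a storkhead box protein, had 0.48 and -0.82. ZNF117, a zinc finger protein with many relatives, had 0.49 (edgeR adjusted p = 0.136) and -0.63. PCDH11Y, a protocadherin, had 1.05 and -2.02, but reads of PCDH11Y and its near-identical X-linked copy PCDH11X, also a member, may be split.

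**Figure D3:**
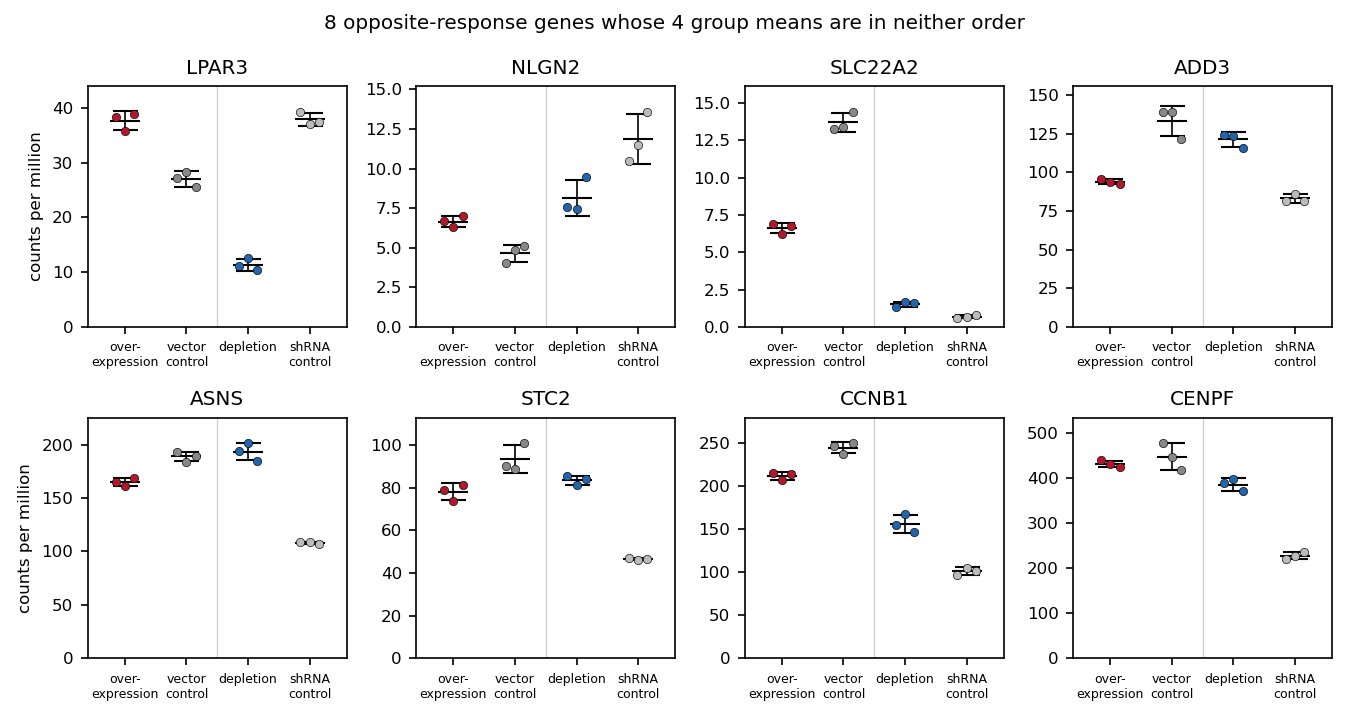
Level (CPM) of 8 members in each library, by group, with points for libraries and bars for mean ± SD. Within each pair of groups the change is opposite, but depletion or overexpression does not lie beyond both controls. For CCNB1 and CENPF the shRNA control is the lowest group, at means of 100.9 and 227 CPM.

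Among those lower with USP22, SLC22A2, an organic cation transporter, had 6.878, 6.254 and 6.785 CPM after overexpression, against 13.27, 13.43 and 14.42 CPM in the vector control. It had 1.307, 1.647 and 1.575 CPM after depletion, against 0.5837, 0.6529 and 0.779 CPM in the shRNA control. The changes were -1.05 and 1.17, yet both shRNA groups lay below both other groups, with a control difference of -4.35. Of its neighbours on chromosome 6 in the GENCODE 29 order, the long non-coding RNA ENSG00000230234 had -1.26 and 0.91, and the pseudogene LPAL2 -0.87 and 0.80. SLC22A3, which stands between them, rose in both comparisons (1.45 and 1.27). These genes lie close together, and no source used here gives the strand setting of the counting, so overlapping transcripts could share reads.

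PRUNE2, a highly expressed gene of prostate cells, averaged 869 ± 16.1 CPM after overexpression and 1268 ± 12.5 in the vector control, and 688 ± 28 after depletion and 473 ± 18.9 in the shRNA control (SD, n = 3 each). ADD3 (adducin, of the membrane skeleton) had changes of -0.50 and 0.55, EPB41L2 (of the same skeleton) -0.59 and 0.58, SLC43A1 (a leucine transporter) -0.73 and 0.54, SLC1A4 (a neutral amino acid transporter) -0.48 and 0.64, and STYXL2 -0.57 and 0.57. The test of a difference in size passed for none of PRUNE2, ADD3, EPB41L2, SLC43A1, SLC1A4 and STYXL2, with edgeR adjusted p between 0.252 and 0.999.

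Functions were read from 37 gene lists, each described by how many of its tested genes were members. The background given for lists is that of tested genes with a mean of at least 5 CPM, of which 4.54% were higher and 9.17% lower with USP22. Lists of growth and stress had the highest shares, all lower with USP22: ATF4 targets 73.3%, G2 and mitosis 69.2%, E2F and DNA replication 67.3%, MYC targets 65.9%, nucleotide and folate synthesis 63%, histones 52.2%, transfer RNA synthetases 45% and cytosolic ribosomal proteins 37.8%. No member of these 8 lists had its group means in the stricter order. In the other direction, interferon-stimulated genes had the highest share of the 37 lists, at 32.5%. Some genes stand in several lists.

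**Figure D4:**
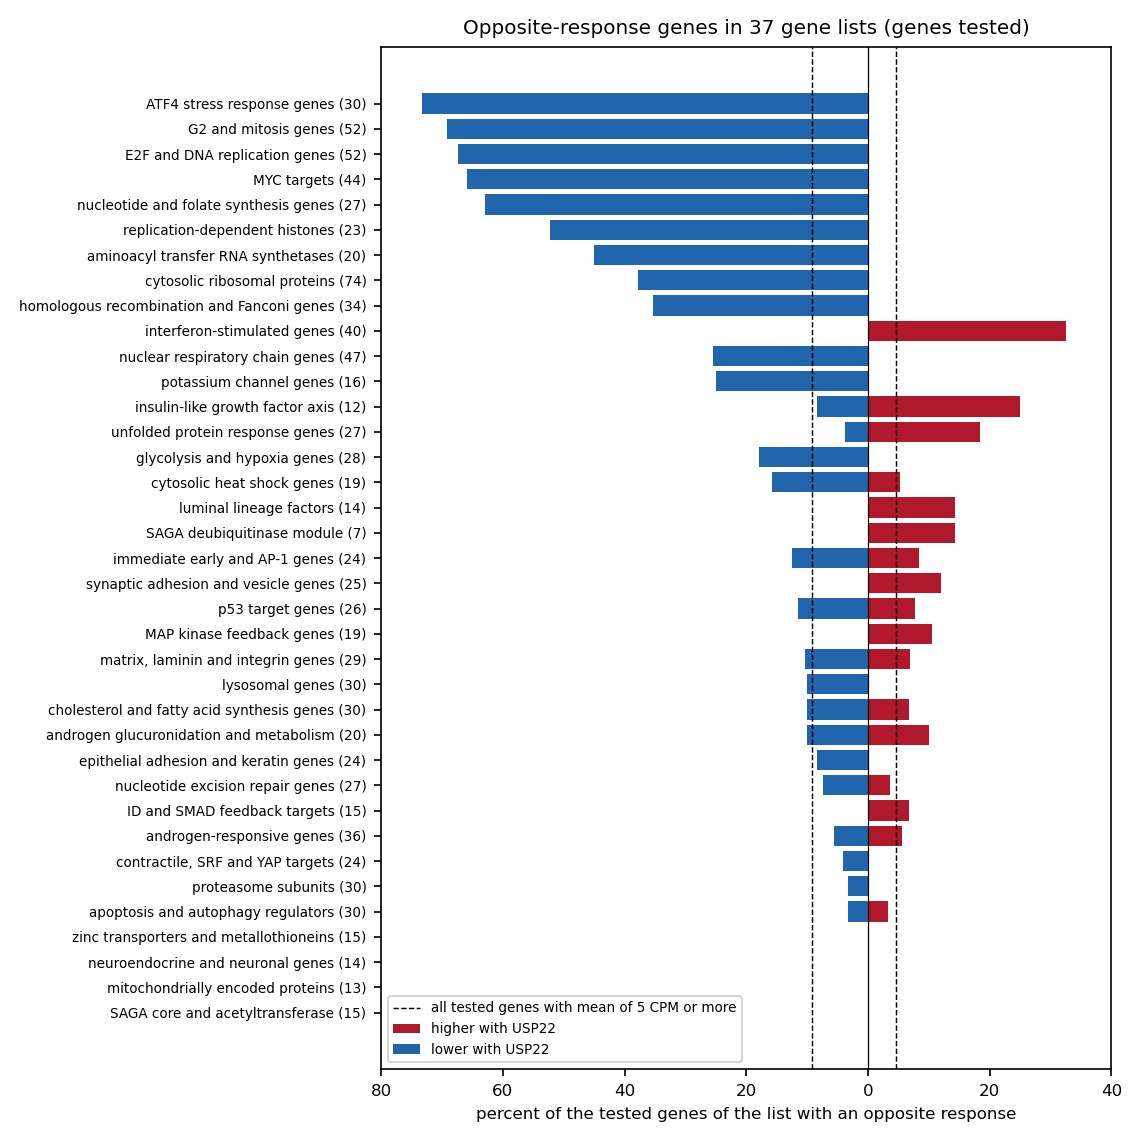
Percent of the tested genes of each of 37 lists that were members, drawn to the left for those lower with USP22 and to the right for those higher with USP22, with the number tested in brackets. Dashed lines mark the shares among all tested genes with a mean of at least 5 CPM, 9.17% lower and 4.54% higher.

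ATF4 is the transcription factor of the integrated stress response, which switches on amino acid synthesis and transport when translation is checked. Of 30 tested ATF4 targets, 22 were members, all lower with USP22. The median log2 change was -0.16 on overexpression and 0.48 on depletion. On overexpression 6 fell and 1 rose, and on depletion 22 rose and 1 fell. The 5 that passed in both with opposite signs were ASNS, STC2, SLC1A5, CHAC1 and ATF4 itself, and ALDH1L2 rose in both. The median control difference was -0.66.

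ASNS (ENSG00000070669), asparagine synthetase, had 165.3, 161.2 and 169 CPM after overexpression, against 193.3, 184.1 and 189.3 CPM in the vector control. After depletion it had 193.9, 201.2 and 185.1 CPM, against 108.4, 109.1 and 107.3 CPM in the shRNA control. Neither pair overlapped, while depletion overlapped the vector control. Its changes of -0.19 and 0.84 (edgeR adjusted p = 0.0495 and 1.7e-08) differed in size (log2 sum 0.64, adjusted p = 1.7e-05). STC2, the secreted stanniocalcin 2, had -0.25 and 0.84. PSAT1, of serine synthesis, had -0.04 (edgeR adjusted p = 0.771) and 0.96, so its membership rested on the depletion. CHAC1, a glutathione-degrading enzyme, had -0.44 and 0.76, and the glutamine transporter SLC1A5 -0.38 and 0.72. ATF4 had 401.8, 404.3 and 422.7 CPM after overexpression, against 484.3, 476.6 and 568.6 CPM in the vector control, and 331.8, 361.7 and 313.6 CPM after depletion, against 249.3, 248.9 and 245.7 CPM in the shRNA control.

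The ASNS promoter is shown because it carries the element that ATF4 binds with C/EBP partners, in capitals (TGATGNAA, either strand). The 150 bases before its start are given 5′ to 3′ from RefSeq (GRCh38.p14), as for the promoters further on.
ASNS (chr7:97872409-97872558, minus strand): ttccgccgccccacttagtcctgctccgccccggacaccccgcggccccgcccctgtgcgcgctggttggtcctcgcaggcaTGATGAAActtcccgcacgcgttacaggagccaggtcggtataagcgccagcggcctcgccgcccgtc

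Across RefSeq windows of 300 bases, from 250 before to 50 after the start, the element was found in 4 of 18 members of this list with a promoter (22.2%), in 6 of 24 tested genes of the list (25%) and in 2.01% of the promoters of all tested genes (13512 matched by symbol). The share among members was thus near that of the list as a whole.

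Aminoacyl transfer RNA synthetases, several of them ATF4 targets, charge transfer RNAs with amino acids. Of 20 tested, 9 were members, all lower with USP22, with medians of -0.09 on overexpression and 0.30 on depletion. CARS1 passed in both comparisons, with -0.29 and 0.47 (edgeR adjusted p = 0.0111 and 3.83e-05). GARS1 had -0.16 and 0.54 and IARS1 -0.12 and 0.49, of which the values on overexpression did not pass.

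Genes of G2 and mitosis encode the cyclins, kinases and spindle proteins of cell division. Of 52 tested, 36 were members, all lower with USP22, and these were every gene of the list whose 2 changes had opposite signs. On depletion 49 rose and none fell, with a median of 0.57. On overexpression edgeR called 0, limma voom 0 and DESeq2 2, with 10 at an unadjusted p under 0.05, and the median was -0.05. The median log2 level of the list, relative to the mean of the vector control, was -0.05 to -0.03 in overexpressing libraries and -0.08 to 0.05 in the vector control. It was -0.43 to -0.32 in depleted libraries and -1.05 to -0.91 in the shRNA control. Overexpression overlapped its control, and both shRNA groups lay below both other groups.

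CCNB1, cyclin B1, had 214.5, 206.5 and 213.1 CPM after overexpression, against 246.1, 236.9 and 249.1 CPM in the vector control. After depletion it had 154.9, 166.9 and 145.8 CPM, against 96.28, 105.2 and 101.3 CPM in the shRNA control. The groups of each pair did not overlap, with changes of -0.21 (edgeR adjusted p = 0.065) and 0.63 (1.8e-06). CENPF, of the kinetochore, had -0.05 and 0.76, and PTTG1, securin, -0.13 and 0.88, and neither passed on overexpression. For both, the test of size passed (log2 sums 0.71 and 0.74, edgeR adjusted p = 1.7e-05 and 0.000113).

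Promoters of 3 members of this list are shown because they hold both elements known from mitotic genes, the CCAAT box of NF-Y and the CHR element (TTTGAA) bound by MuvB complexes, in capitals on either strand (a CCAAT box on the other strand reads ATTGG). They were taken by smallest p from members that hold both elements within 150 bases before the start. Some genes were left out by chromosome beforehand, so members with a smaller p may be missing.
PRC1 (chr15:90994536-90994685, minus strand): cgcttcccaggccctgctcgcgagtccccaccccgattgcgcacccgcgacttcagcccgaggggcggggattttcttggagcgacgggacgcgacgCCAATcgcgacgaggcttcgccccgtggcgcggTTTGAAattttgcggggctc
CCNB2 (chr15:59104996-59105145, plus strand): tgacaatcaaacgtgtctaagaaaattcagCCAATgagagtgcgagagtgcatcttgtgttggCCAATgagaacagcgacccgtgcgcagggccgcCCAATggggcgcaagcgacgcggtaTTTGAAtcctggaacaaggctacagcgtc
KIF23 (chr15:69414199-69414348, plus strand): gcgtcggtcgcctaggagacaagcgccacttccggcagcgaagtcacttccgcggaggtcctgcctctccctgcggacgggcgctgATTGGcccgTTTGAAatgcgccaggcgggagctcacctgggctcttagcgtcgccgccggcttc

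PRC1, a bundler of spindle microtubules, had log2 changes of -0.19 on overexpression and 0.52 on depletion, CCNB2, cyclin B2, -0.06 and 0.67, and KIF23, a kinesin of cytokinesis, -0.12 and 0.52. Of 29 members with a promoter, 21 held a CCAAT box and 21 a CHR element (72.4% each), against 36.1% and 10.8% of all tested promoters. Among all 44 tested genes of the list with a promoter the shares were 72.7% and 70.5%.

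E2F factors drive the genes of DNA replication in S phase. Of 52 tested genes of E2F and replication, 35 were members, all lower with USP22, with medians of -0.07 and 0.43. On overexpression 2 fell, CDC45, a helicase subunit (-0.43), and MCM5 (-0.37), and on depletion 46 rose. CDC45 had 34.39, 30.52 and 34.68 CPM after overexpression, against 40.15, 42.29 and 51.73 CPM in the vector control. It had 27.36, 28.04 and 24.92 CPM after depletion, against 17.48, 16.67 and 16.9 CPM in the shRNA control. Both pairs were apart, and both shRNA groups lay below both other groups. GINS4 and MCM4, of the same helicase, had -0.16 and 0.80, and -0.17 and 0.60. E2F1 had -0.37 (edgeR adjusted p = 0.0544) and 0.44.

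For this list the promoters of PCNA, the sliding clamp, and RFC4, a clamp loader subunit, are shown with the E2F core (TTCCCGC, either strand) in capitals, chosen by the same rule.
PCNA (chr20:5126623-5126772, minus strand): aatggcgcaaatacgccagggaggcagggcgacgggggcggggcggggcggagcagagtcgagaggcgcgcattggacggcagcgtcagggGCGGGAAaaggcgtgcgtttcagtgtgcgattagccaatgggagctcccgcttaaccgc
RFC4 (chr3:186806483-186806632, minus strand): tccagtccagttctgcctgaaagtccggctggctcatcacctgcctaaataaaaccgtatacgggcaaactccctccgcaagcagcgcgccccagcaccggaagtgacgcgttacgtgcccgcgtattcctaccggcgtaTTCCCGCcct

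PCNA had changes of -0.03 and 0.68 and RFC4 -0.06 and 0.56, with overexpression values that did not pass (edgeR adjusted p = 0.839 and 0.674). The core was found in 39.3% of the 28 members with a promoter, 37.2% of the 43 tested genes of the list and 9.38% of all tested promoters.

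Replication-dependent histones followed, with 12 of 23 tested genes as members and medians of -0.08 and 0.70. H4C16, a histone H4 gene, had 14.78, 14.77 and 14.05 CPM after overexpression, against 48.31, 36.98 and 56.56 CPM in the vector control. It had 15.06, 15.19 and 13.85 CPM after depletion, against 9.95, 11.58 and 10.79 CPM in the shRNA control. The vector control was the high group, and the overexpressing and depleted cells overlapped. The linker histones H1-2 and H1-5 had -0.20 and 0.69, and -0.25 and 0.72, passing on depletion alone. Histone copies are near identical, so reads may be split. The count was 4 without vector control replicate 3 and 19 without vector control replicate 2.

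MYC is a transcription factor for ribosome building and biosynthesis. Of 44 tested MYC targets, 29 were members, all lower with USP22, with medians of -0.11 and 0.32. NCL, nucleolin, had 769.8, 807.2 and 824.2 CPM after overexpression, against 919.7, 899.4 and 974.1 CPM in the vector control. It had 616.1, 625.8 and 552.9 CPM after depletion, against 439.2, 488.2 and 440.5 CPM in the shRNA control. Both pairs were apart, with changes of -0.22 (edgeR adjusted p = 0.0657) and 0.39 (0.00032). HSPD1, a mitochondrial chaperonin, had -0.09 and 0.41 and NOP56, of box C/D particles, -0.17 and 0.39. PES1 and PA2G4 were the 2 that passed in both comparisons. MYC itself had -0.06 (edgeR adjusted p = 0.678) and 0.68 (1.78e-06), and had a control difference of -1.64.

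Cytosolic ribosomal proteins had 28 members among 74 tested genes, with medians of -0.09 and 0.18. edgeR called 0 of them on overexpression, limma voom 1 and DESeq2 1, with 16 at an unadjusted p under 0.05, and 32 rose on depletion. RPS25 had -0.15 and 0.22 and RPL4 -0.09 and 0.31. RPS7 had a change near 0 on overexpression (edgeR adjusted p = 0.996) and 0.36 on depletion, and was a member by the sign of that small value. That sign turned in 12 of 19 alternatives, in which RPS7 was no member. Processed pseudogenes of ribosomal proteins may take some of their reads. The count of members was 45 without vector control replicate 3, and between 10 and 14 without overexpression replicate 1 or 2, shRNA control replicate 1 or 3, or depletion replicate 1 or 2. Nuclear genes of the respiratory chain, of which 12 of 47 were members, varied as well: 24 without vector control replicate 3, 20 without vector control replicate 2, and 3 to 7 without any 1 overexpression library, shRNA control replicate 1 or 3, or depletion replicate 1 or 2.

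Nucleotide and folate synthesis supplies precursors for DNA. Of 27 genes 17 were members, all lower with USP22, with medians of -0.08 and 0.29. The mitochondrial folate enzymes MTHFD2 and MTHFD1L had -0.15 and 0.68, and -0.15 and 0.70, and RRM1, of ribonucleotide reductase, -0.07 and 0.42. None of the 3 passed on overexpression. Homologous recombination and Fanconi genes, which repair broken and crosslinked DNA, had 12 members of 34 (35.3%), with medians of 0.04 and 0.39. BARD1, the partner of BRCA1, passed in both comparisons (-0.39 and 0.27, edgeR adjusted p = 0.00296 and 0.0103). FANCD2, of the Fanconi pathway, had -0.11 and 0.52, of which the overexpression value did not pass. Of 27 nucleotide excision repair genes 3 were members, 1 higher and 2 lower, and the 2 ranged over 0 to 3 with single libraries left out.

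**Figure D5:**
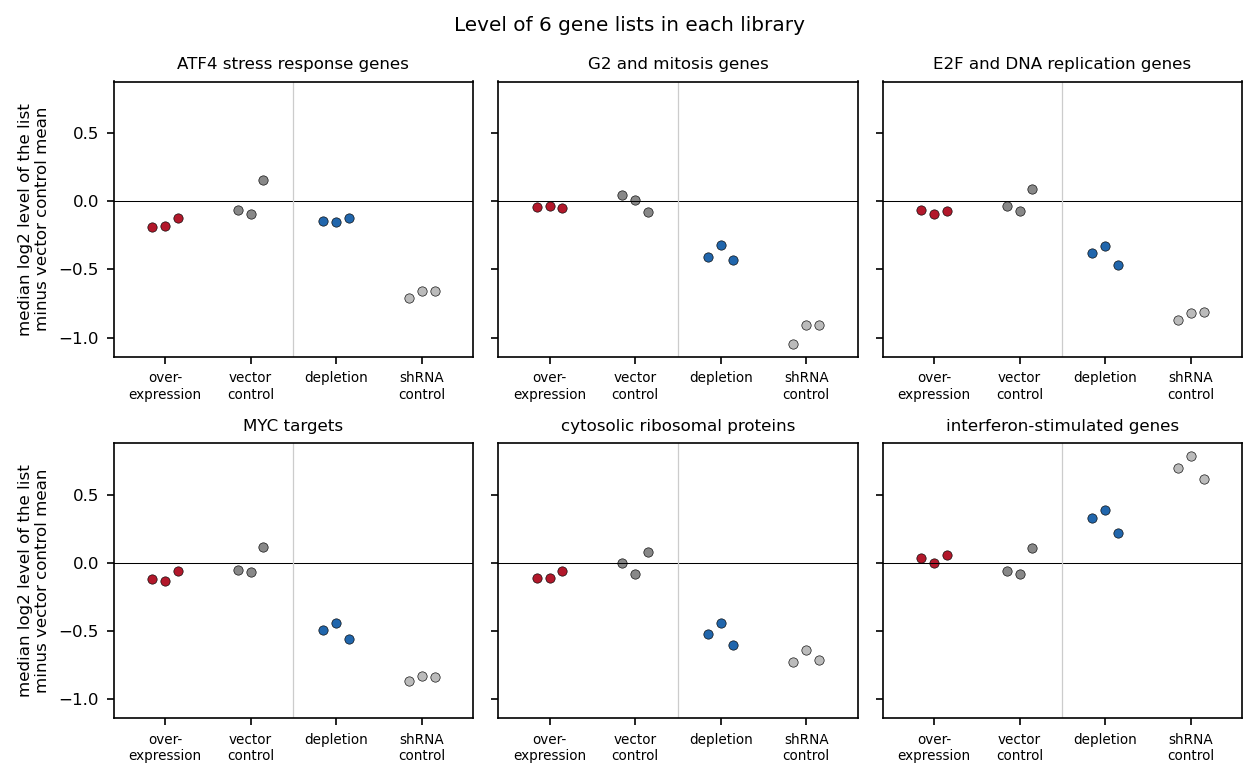
Median log2 level of 6 gene lists in each library, relative to the mean of the vector control, by group. In the 5 lists lower with USP22 the overexpressing libraries lie within 0.19 of the vector control mean and the shRNA control is lowest, and for interferon-stimulated genes the shRNA control is highest.

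Interferon-stimulated genes, which code for antiviral proteins and antigen presentation, had 13 members among 40 tested genes, all higher with USP22. Their list had a median of 0.03 on overexpression and -0.34 on depletion, with 3 rising and 2 falling on overexpression, and 2 rising and 20 falling on depletion. IFIT3, an antiviral effector, passed in both with opposite signs, with 1.853, 1.424 and 1.45 CPM after overexpression, against 1.092, 0.975 and 1.099 CPM in the vector control. It had 2.38, 2.624 and 1.971 CPM after depletion, against 2.964, 3.474 and 3.321 CPM in the shRNA control. Both pairs were apart, and both shRNA groups lay above both other groups. HLA-B, of class I antigen presentation, had 0.03 (edgeR adjusted p = 0.836) and -1.39 (8.68e-10), and HLA genes share sequence, so their reads may be split. IFI44 had 0.59 (0.00516) and -0.19 (0.218), so that it passed on overexpression alone. The median control difference was 0.92. The count was 8 without vector control replicate 2 or overexpression replicate 3, and 18 without vector control replicate 3.

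The promoters of IFI44 and IFIT3 are shown with the interferon-stimulated response element (GAAA, any pair of bases, GAAA, either strand) in capitals, chosen by the same rule.
IFI44 (chr1:78649639-78649788, plus strand): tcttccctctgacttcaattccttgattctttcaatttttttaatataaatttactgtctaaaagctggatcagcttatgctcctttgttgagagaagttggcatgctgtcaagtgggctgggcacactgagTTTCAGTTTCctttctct
IFIT3 (chr10:89327847-89327996, plus strand): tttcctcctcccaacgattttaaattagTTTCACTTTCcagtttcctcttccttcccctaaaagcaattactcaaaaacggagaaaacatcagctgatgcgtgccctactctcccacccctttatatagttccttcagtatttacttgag

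The element was found in 6 of 9 members with a promoter and 20 of 30 tested genes of the list (66.7% each), against 2.83% of all tested promoters. Its share was 5.3% among all members higher with USP22 and 2.16% among those lower with USP22. A match describes letters in a window and shows no binding.

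Lists with smaller shares held single genes of note, chosen after their values were seen. Of 27 unfolded protein response genes, 5 were higher with USP22, led by HSPA5, the endoplasmic reticulum chaperone BiP, at 0.18 (edgeR adjusted p = 0.199) and -0.59 (3e-05), and XBP1 was lower with USP22. The count of 5 was 2 or 3 without any 1 overexpression or shRNA control library or depletion replicate 1. Of 26 p53 targets, 2 were higher and 3 lower with USP22, and the 3 became 5 without vector control replicate 1 or 2, and 1 without overexpression replicate 1 or 2, any 1 shRNA control library, or depletion replicate 1 or 2. With no filter on low counts they were 6. CDKN1A, the cell cycle inhibitor p21, had 205.1, 199.4 and 206.7 CPM after overexpression, against 174.8, 174 and 220.1 CPM in the vector control. It had 70.78, 72.2 and 64.65 CPM after depletion, against 123.4, 128.8 and 116.4 CPM in the shRNA control. Overexpression overlapped its control (0.10, edgeR adjusted p = 0.532) and depletion lay below every other library (-0.83, 2.76e-06).

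Of 36 tested androgen-responsive genes, 2 were higher and 2 lower with USP22 (5.56% each, against 4.54% and 9.17% in the background), while 12 passed in both comparisons with the same sign. The members included TMPRSS2, a membrane serine protease (0.07 and -0.45), HPGD and TSC22D3, a glucocorticoid-induced leucine zipper protein (-0.06 and 0.75). ID and SMAD feedback genes had 1 member of 15 and 7 genes passing in both with the same sign, and contractile, SRF and YAP targets 1 of 24 and 11. Of 16 potassium channel genes 4 were lower with USP22 (25%, against 9.17% in the background), and KCNH8, described above, is not among these 4. Of 12 genes of the insulin-like growth factor axis 3 were higher (25%, against 4.54%) and 1, IGFBP2, lower (8.33%, against 9.17%). The 3 became 1 without overexpression replicate 1, shRNA control replicate 2 or 3, or depletion replicate 3.

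Other lists of lineage, signalling and metabolism held 1 to 5 members each, read against the same background of 4.54% higher and 9.17% lower. Shares higher with USP22 were 14.3% of 14 luminal lineage factors, 10.5% of 19 MAP kinase feedback genes and 10% of 20 genes of androgen glucuronidation and metabolism, with 2 genes in each. The glucuronidation list had 2 lower as well (10%). Shares lower with USP22 were 17.9% of 28 glycolysis and hypoxia genes (5 genes) and 15.8% of 19 cytosolic heat shock genes (3 genes, with 1 higher). Immediate early and AP-1 genes had 2 higher and 3 lower of 24 (8.33% and 12.5%), and matrix, laminin and integrin genes 2 and 3 of 29 (6.9% and 10.3%). Cholesterol and fatty acid synthesis had 2 higher and 3 lower of 30 (6.67% and 10%).

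Lysosomal genes had 3 lower of 30 (10%), epithelial adhesion and keratin genes 2 lower of 24 (8.33%), proteasome subunits 1 lower of 30 (3.33%), and apoptosis and autophagy regulators 1 higher and 1 lower of 30 (3.33% each). The median dose contrasts of these 12 lists lay between -0.14 and 0.13. Such small counts moved with single libraries. Leaving out 1 library at a time gave 1 to 3 higher luminal factors, 1 or 2 higher MAP kinase feedback genes, 2 to 6 lower glycolysis genes and 2 to 5 lower heat shock genes. It gave 1 to 3 lower AP-1 genes, 0 to 3 higher cholesterol and fatty acid genes, 0 to 3 lower lysosomal genes, 0 to 4 lower epithelial genes and 1 to 5 lower proteasome subunits. In the glucuronidation list it gave 1 or 2 higher and 2 to 4 lower, among matrix genes 2 to 4 higher, and among apoptosis regulators 0 to 2 higher and 1 to 3 lower.

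In 4 lists, that of the SAGA core included, edgeR found 0 members. Of 14 neuroendocrine and neuronal genes edgeR called 1 in the dose contrast, with 4 at an unadjusted p under 0.05, and DESeq2 and limma voom called 1 each. Of 15 zinc transporters and metallothioneins edgeR and limma voom called 2 and DESeq2 3, with 4 at an unadjusted p under 0.05 by edgeR, and DESeq2 made 1 of them a member, lower with USP22. Of 13 mitochondrially encoded proteins, edgeR and limma voom called 0 and DESeq2 1, with 2 at an unadjusted p under 0.05 by edgeR. The median change of these 13 was 0.46 on overexpression and 0.22 on depletion, so both were positive. The mitochondrial share of reads was 0.691% in vector control replicate 3, against 1.04% and 1.24% in its group mates.

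Gene length and chromosome were not used by the rule. Protein-coding members higher with USP22 spanned a median of 50.6 kb in GENCODE 29, those lower with USP22 27.5 kb, and all tested protein-coding genes 32.4 kb. Chromosome 6 had 8.86% of its tested genes among members higher with USP22 and chromosome 4 had 7.22%, against 3.23% over all chromosomes. The highest share was that of chromosome Y, at 9.52%, but this was 6 of 63 genes. On chromosome 6 the median log2 change of all tested genes was 0.02 on overexpression and -0.13 on depletion. Chromosome 22 had 0.816% higher and 6.69% lower, at medians of -0.21 and -0.08. Shares lower with USP22 were larger on chromosomes 12 (7.2%) and 2 (6.85%), against 4.86% of all tested genes. GC content of the longest transcript of the same protein-coding genes had medians of 46.8% for higher members, 48.4% for lower members and 48.7% for all. These are descriptions without a test. In bulk RNA, fewer cells of a kind and less RNA per cell cannot be told apart.

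How many members there were depended on single libraries. The 2110 became 3869 without vector control replicate 3, of which 1892 were shared, and 1404 without shRNA control replicate 1. The 123 genes passing in both comparisons became 393 without vector control replicate 3, 48 to 75 without any 1 overexpression library, 69 to 76 without any 1 shRNA control library, and 67 without depletion replicate 1. There were 1735 opposite-response genes higher with USP22 and 2134 opposite-response genes lower with USP22 without vector control replicate 3, and those lower were 831 without shRNA control replicate 1. The genes passing in both comparisons were 36 when each comparison was fitted on its own 6 libraries.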

How the data were processed

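RNA from 12 LNCaP libraries went through a strand-marking library kit for total RNA, per the labels' protocols. The authors deposited raw read counts for 63677 Ensembl gene IDs. The submitters' processing notes name STAR 2.5.2a, featureCounts 1.5.0-p3 and DESeq2 1.14.1, with hg19 as the build. Annotation release, strand setting and treatment of multi-mapping reads: not given in the sources used here. No file coordinates are used, because the annotation at hand is of GRCh38.

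Groups came from sample titles and columns were matched by name. Symbols were found by ID for 94.9% of tested genes. Counts were analysed with edgeR 4.0.16 in R 4.3.3: filterByExpr by group left 26076 genes, TMM scaled the libraries, and glmQLFit fitted a mean per group over all 12 libraries with 8 residual degrees of freedom. Contrasts were tested by glmQLFTest with Benjamini-Hochberg adjustment over all tested genes at 0.05. The dose contrast is on the log2 scale per comparison. CPM of single genes use TMM-scaled totals, and the summed CPM of cell type markers use plain library totals. List levels per library use log2 of CPM plus 0.5. The procedure was tested on simulated data with equal and opposite changes and no difference between the controls. That setting does not cover genes that change on depletion alone or differ between the controls.

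Members, lists and naming rule were chosen with earlier results of these data known. Of 1125 list entries, 1086 matched an ID. Named genes were USP22, the 10 per direction with the largest smaller change of the 2 comparisons (mean of at least 5 CPM, a symbol that is no clone name, replicates not overlapping in either comparison), 5 further ordered genes per direction, and the 3 members with the smallest p in each of the 8 lists with the largest share. Genes outside this rule were chosen after their values were seen. Alternatives were RLE scaling, other filters, DESeq2 1.42.0, limma voom 3.58.1, a replicate block, separate fits, a threshold of 0.01, leaving out the 20 most abundant genes and leaving out each library. Counts per list under these, and the background at 5 CPM or more, were added after seeing the data. A few genes are not reported here. Counting error is small for well-expressed genes at 77607469 reads or more per library, but not for genes of very low CPM such as KCNH8.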

Additional observations from a re-analysis of the deposited data

How the results depend on the processing

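The 2110 opposite-response genes, with 843 opposite-response genes higher with USP22 and 1267 opposite-response genes lower with USP22, stayed within 1.5 times, and the dose contrast of USP22 past its threshold, under RLE scaling (2118), without a filter (2685), with 3 libraries required to reach 1 CPM (2288), DESeq2 (2606), limma voom (2141) and without the 20 most abundant genes (2107). At an adjusted p of 0.01 there were 980 members, 365 higher and 615 lower with USP22, and 37 opposite-response genes called in both comparisons. The order of all group means left 224, of which 130 were higher and 94 lower. The 123 genes passing in both were 255 with no filter, 213 by DESeq2 and 36 with each comparison fitted on its own 6 libraries. Leaving out 1 library at a time gave 1404 to 3869 members, 573 to 1735 higher, 831 to 2134 lower and 48 to 393 passing in both. The highest values were all without vector control replicate 3, and the cause was not tested. Between 64.2% and 89.7% of the 2110 genes were still members in these fits. A replicate block gave 2187 members and 137 genes passing in both. Deviations from group means were correlated between libraries. Same-numbered libraries gave -0.018 to 0.083 between overexpression and vector control, and -0.022 to 0.068 between depletion and shRNA control. Differently numbered libraries of these pairs gave -0.093 to 0.069 and -0.083 to 0.023. Not every library correlated best with its own number, and correlations this weak cannot decide whether the numbers pair samples. The dose contrast of every gene under the naming rule kept its sign and passed in each alternative run that tested the gene. Genes named outside that rule are not covered here. The runs were 19 refits of the dose contrast, without the separate fits and the threshold of 0.01. RPL4 was tested in 18 of the 19. RPS7 was no member in 12 of 19 alternatives, in which its change on overexpression turned positive (range over all 19: -0.020 to 0.028 log2 units). The other genes under the naming rule were members in each run that tested them. For well-expressed genes, groups of 3 limit the precision more than the depth does.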
